A study of Mus musculus with 3 samples.

Results

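The granule proteins of neutrophils were examined through 9 genes, ordered by the stage of maturation at which each granule forms. The rule for members is a list of gene names with no threshold on values, although the names were picked with earlier results of these data known. All 11 non-control probes carrying these names were taken, of 55679 probes and 34796 gene names on the array. The primary granule genes Mpo, Elane, Prtn3 and Ctsg had 5 probes, and the secondary granule genes Ltf, Camp and Ngp had 4. The genes taken here as tertiary, Mmp8 and Mmp9, had 2. The stage of each gene, that of Mmp8 included, is the one set by the list, and granule content was not measured. All 11 probes were well above background on all 3 arrays, so that no gene was lost to a filter on dim probes.

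The samples were spleens of male C57BL/6J mice made diabetic with streptozotocin (STZ), a toxin of beta cells. By the study's methods every recipient received 25 islets in the spleen and 100 under the kidney capsule. The spleen was taken at once on day 0 (Sample 1), on day 2 (Sample 2), or on day 139 (Sample 3), where the kidney with its graft had been taken out on day 100. The sample characteristics name the graft under the capsule only for Sample 3. STZ treatment and surgery were common to all 3 arrays, so day 0 is not an untreated spleen, and a spleen without islets was not analysed here. Each time point has 1 array, the number of mice behind it is not given in the sources used here, and no comparison has a replicate check. Day 139 also differs from the other days by nephrectomy and by the age of the mice, which cannot be told apart from time.

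Neutrophil granules form one kind after another as the cell matures. Promyelocytes make the primary granules with myeloperoxidase and the serine proteases, myelocytes make the secondary granules with lactoferrin and cathelicidin, and band cells make the tertiary granules with gelatinase. Transcription of each set is largely shut off when the next begins, so blood neutrophils carry the proteins of the early granules with little of their mRNA. In the mouse, the spleen holds both mature neutrophils and sites where granulocytes are made.

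The primary and secondary genes were at or modestly above their day 0 level at both later times, while both tertiary genes were lower. Against day 0, Mmp8 was 21.7-fold lower on day 2 and 22.4-fold lower on day 139, and Mmp9 was 2.19-fold and 3.00-fold lower. The 7 primary and secondary genes, read by their brightest probes, lay between 1.01-fold and 1.64-fold of day 0. A gene was called changed when its ratio was at least 1.5 or at most 0.66 and its Z-score was at least 2 or at most -2. The Z-score sets a gene's log2 ratio against the spread (SD) of that ratio among 1000 probes of similar signal, and it describes these arrays without testing the conditions. By these criteria 2 of 9 genes fell on day 2, beside 2.55% of the 32108 probes detected on at least 1 array, and 2 of 9 fell on day 139, beside 2.21%. These were Mmp8 and Mmp9 both times. None of the 9 rose against day 0, where 1.91% of probes rose on day 2 and 2.52% on day 139. None was called between day 139 and day 2, where 4.16% of probes were called in either direction.

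**Figure D1:**
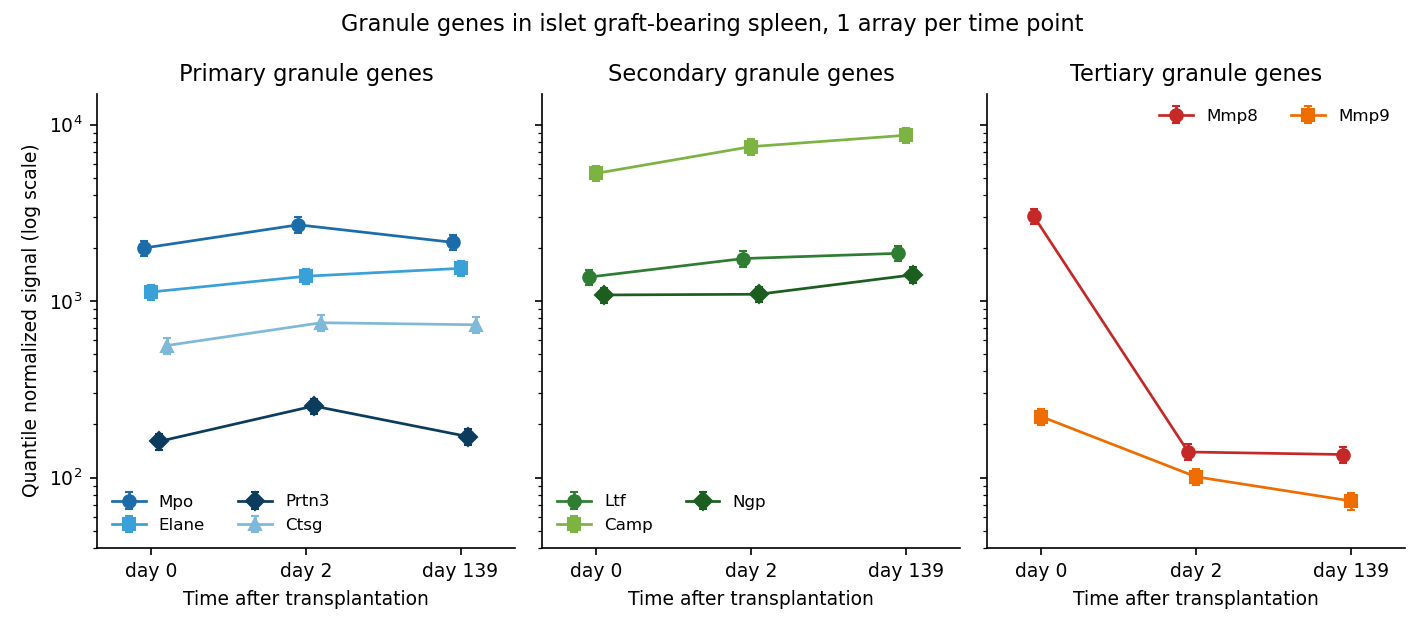
Quantile normalized signal (log scale) of each gene's brightest probe on the day 0, day 2 and day 139 arrays, in 1 panel for each granule stage. Bars are the error that the scanner software gave for each signal and do not show variation between mice. Lines of the primary and secondary genes rise by at most 1.64-fold over day 0, whereas Mmp8 drops from 3033 (day 0) to 140 and 135.

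The stretches of DNA before the first exon are shown for the members in which short motifs of factors known from granulocyte genes were found. PU.1 is a factor of early myeloid cells, and C/EBP factors, among them C/EBP epsilon, act in the promyelocyte and myelocyte. The windows come from the RefSeq promoter table (GRCm38.p6), which matched 8 of the 9 members, all but Mmp9. Each is given in the direction of the gene, with the motif in capitals. GAGGAAGT, searched for PU.1 on both strands, lies in Mpo, Elane, Prtn3 and Mmp8, and in Mmp8 it reads on the reverse strand.
Mpo (chr11:87793534-87793593): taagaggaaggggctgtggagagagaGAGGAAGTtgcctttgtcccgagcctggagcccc
Elane (chr10:79886201-79886260): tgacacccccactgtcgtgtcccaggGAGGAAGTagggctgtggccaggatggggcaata
Prtn3 (chr10:79879546-79879605): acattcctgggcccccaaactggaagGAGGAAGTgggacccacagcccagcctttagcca
Mmp8 (chr9:7558182-7558241): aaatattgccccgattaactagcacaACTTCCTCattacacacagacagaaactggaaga

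The motif begins 224 bases before the start of Mpo, 85 before Elane, 95 before Prtn3 and 221 before Mmp8. It occurs in 4 of the 8 member windows and in 3.20% of 32851 promoter windows of the same length, which reach from 250 bases before to 50 bases after the start. TTNNGNAAT, searched for C/EBP, was found in 2 members, Ltf and Ngp, and in 11.5% of all windows.
Ltf (chr9:111019191-111019251): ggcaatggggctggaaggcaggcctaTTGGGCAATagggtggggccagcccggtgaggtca
Ngp (chr9:110419643-110419703): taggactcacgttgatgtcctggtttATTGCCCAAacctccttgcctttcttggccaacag

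Ltf and Ngp hold the same 9 bases, TTGGGCAAT, in Ltf on the strand of the gene and in Ngp on the other, while Camp, the third secondary gene, has no match. That exact string, searched after it was seen in these genes, is in 0.146% of all windows. TGANTCA, searched for AP-1, was in none of the 8, beside 7.81% of all windows. CCAAT was in 4 and TATAAA in 2 of the 8, beside 37.4% and 13.6%, and the NF-kB motif was in 1, beside 8.46%. A match is a string of letters and shows no binding.

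Mpo, the enzyme that makes hypochlorous acid from hydrogen peroxide, had a normalized signal of 1996 on day 0, 2705 on day 2 and 2152 on day 139. Its log2 ratio against day 0 was 0.44 on day 2 and 0.11 on day 139. The error of a log2 ratio, propagated from the scanner software's error for the signals, was 0.20 for Mpo, so the day 139 value lay within that error, and it ran from 0.20 to 0.22 over all members. The second Mpo probe, designed on another transcript record, read 221, 202 and 266. It was lower on day 2 by 0.13 and higher on day 139 by 0.27 on the log2 scale, so the probes of Mpo disagreed on the direction on day 2. They disagreed again between day 139 and day 2, at -0.33 for the brighter probe and 0.40 for the other. The sequence of that probe (mm9, chr11:87615121-87615180) is shown because the readings of Mpo turn on which probe is used.
Mpo second probe: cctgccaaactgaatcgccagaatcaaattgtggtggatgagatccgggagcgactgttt

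Elane encodes neutrophil elastase. Its signal was 1126, 1383 and 1533 in the same order of days, giving log2 ratios of 0.30 and 0.44 against day 0. Prtn3, which encodes proteinase 3, read 160, 254 and 171. Its ratio of 1.59 on day 2 passed the limit on the ratio, as 10.1% of all probes did, with a Z-score of 1.29, and on day 139 it was back at 1.06. The Prtn3 probe joins bases that lie 817 bases apart from end to end in the genome (mm9, chr10:79343869-79344685), so its 60 bases span a splice junction.
Prtn3: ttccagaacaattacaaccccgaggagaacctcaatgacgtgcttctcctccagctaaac

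Ctsg encodes cathepsin G, the protease of the set whose gene lies apart from the Prtn3 and Elane pair, which are direct neighbours on chromosome 10. It read 560, 754 and 734, with log2 ratios of 0.43 and 0.39. Thus Prtn3 and, on its brighter probe alone, Mpo were highest on day 2 and returned toward day 0, Elane was highest on day 139, and Ctsg was nearly equal on both later days. Between day 139 and day 2, the log2 ratio was -0.58 for Prtn3, past the scanner error, and 0.15 for Elane and -0.04 for Ctsg, within it.

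The secondary genes changed as little. Ltf encodes lactoferrin, which binds iron. Its probe (mm9, chr9:110942873-110942932) read 1367, 1742 and 1864, with log2 ratios of 0.35 and 0.45.
Ltf: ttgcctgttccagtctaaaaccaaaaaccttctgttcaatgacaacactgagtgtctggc

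Camp, the precursor of the antimicrobial peptide CRAMP, read 5295, 7500 and 8696, and its ratio of 1.64 on day 139 was the highest among the brightest probes of the 9 genes. It passed the limit on the ratio, as 12.8% of all probes did, with a Z-score of 1.28. The other Camp probe read 2213, 3274 and 3628, a ratio also of 1.64. The agreement of these probes is not that of independent measurements, as they share 40 of their 60 bases. Ngp, neutrophilic granule protein, a relative of the cathelicidins, read 1083 on day 0 and 1093 on day 2, the smallest difference of the set, and 1410 on day 139. Its probe covers 549 bases of genome (mm9, chr9:110324266-110324814) and spans a splice junction as well.
Ngp: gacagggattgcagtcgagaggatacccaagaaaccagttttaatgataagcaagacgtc

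On their brightest probes, all 7 primary and secondary genes had ratios above 1 on day 2, beside 51.6% of all probes, and again on day 139, beside 47.8%. Both comparisons share the day 0 array, so these counts do not stand apart from each other. The other Mpo probe had a ratio of 0.92 on day 2. The log2 ratios of Ngp on day 2, at 0.01, and of Mpo and Prtn3 on day 139, at 0.11 and 0.09, lay within the scanner error. The medians on the log2 scale were 0.43 for the primary and 0.35 for the secondary genes on day 2, where all detected probes had a median of 0.01. On day 139 they were 0.25 and 0.45, beside -0.02 for all probes. Scaled to the spike-in controls, which read 65.9% of their day 0 level on day 139, the day 139 medians became 0.64 and 0.85, beside 0.35 for all probes.

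The 2 genes taken here as tertiary moved the other way. Mmp8 encodes neutrophil collagenase, made by neutrophils as they mature. Its probe, a single spot on each array (mm9, chr9:7568238-7568297), read 3033 on day 0, 140 on day 2 and 135 on day 139. The log2 ratios were -4.44 on day 2 and -4.49 on day 139, with a scanner error of 0.21 for each and Z-scores of -7.93 and -6.91. Among probes well above background on both arrays, its ratio ranked 6 from the lowest of 28703 on day 2 and 2 from the lowest of 27217 on day 139. Between day 139 and day 2 it differed by -0.05, within the scanner error. The day 2 and day 139 spots stayed above the lowest signals well above background, which were 14.0 and 18.2.

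**Figure D2:**
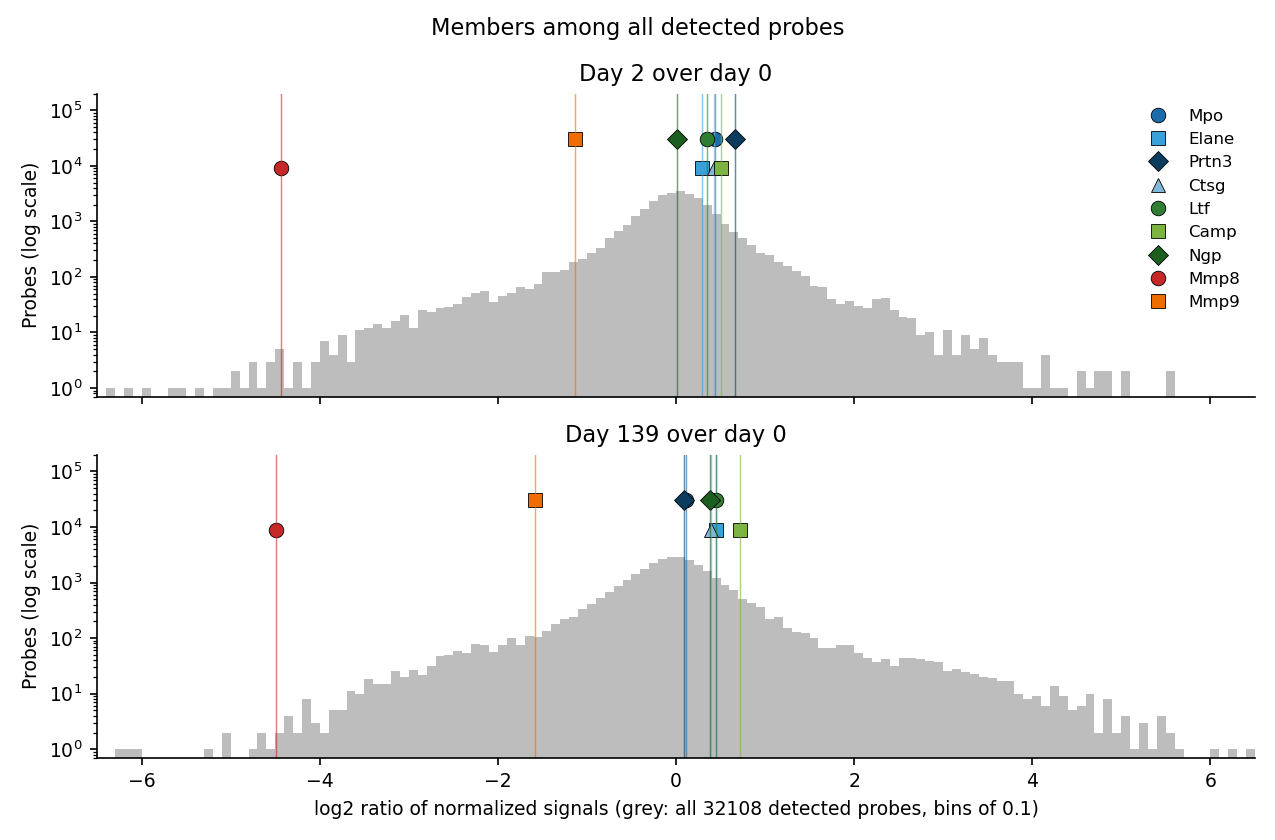
Distribution of the log2 ratios of all 32108 detected probes (grey, number of probes on a log scale), with the 9 genes marked at their own ratios, for day 2 over day 0 and day 139 over day 0. The height of a marker has no meaning. The primary and secondary genes lie within the main peak, from its centre to its right shoulder, between 0.01 and 0.72. Mmp8 lies in the far left tail at -4.44 and -4.49.

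Mmp9, gelatinase B, is the defining protein of gelatinase granules and is also made by macrophages. It read 221, 101 and 73.8, with log2 ratios of -1.13 on day 2 and -1.59 on day 139. The Z-score of -2.05 on day 2 lay just past the limit, and that on day 139 was -2.51. Mmp9 was the 1 member printed in 10 spots on each array (mm9, chr2:164780620-164780679), which shows the spread within an array. Before normalization the spots had a mean of 233 on day 0, 106 on day 2 and 66.2 on day 139, and the SD over the 10 spots was 5.27%, 6.39% and 16.1% of the mean. The lowest day 0 spot, at 201, was above the highest day 2 spot, at 113, and the lowest day 2 spot, at 91.3, was above the highest day 139 spot, at 84.2. These arrays differ in scale. With the spots multiplied by the factor that normalization gave the probe on each array, a step added after the values were seen, the lowest day 0 spot was at 191 and the highest day 2 spot at 108, still apart. The lowest day 2 spot, at 87.3, then lay below the highest day 139 spot, at 93.7, so these days overlapped. The 10 spots of 1 RNA say nothing of the spread between mice. After normalization, the log2 ratio between day 139 and day 2 was -0.45, with a Z-score of -0.73, and Mmp9 was not called between these days.

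**Figure D3:**
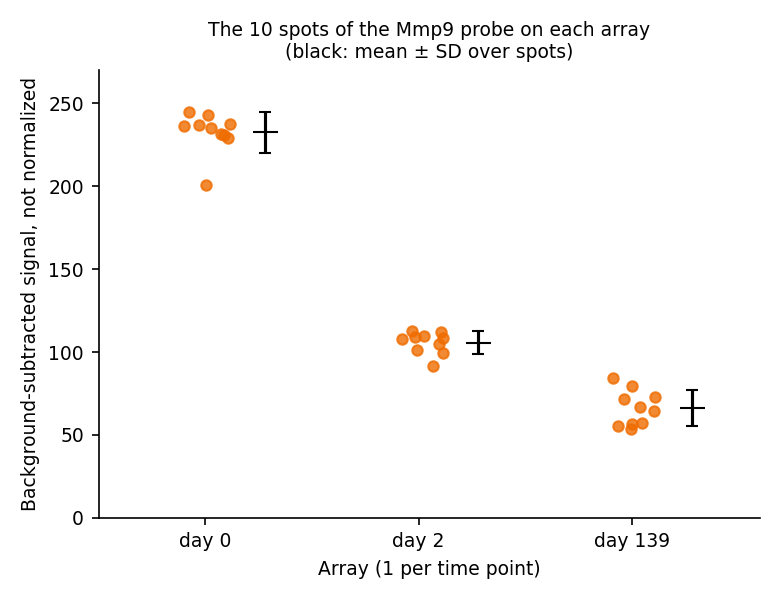
Background-subtracted signal, before normalization between arrays, of the 10 spots of the Mmp9 probe on each array, with the mean and SD over spots in black. The spots range from 201 to 245 on day 0, from 91.3 to 113 on day 2 and from 53.4 to 84.2 on day 139. The signals are on the scale of each array, and the day 2 and day 139 spots overlap once scaled as in the normalization.

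The median of the tertiary genes lay below that of the primary genes by -3.22 on the log2 scale on day 2 and by -3.29 on day 139. Under the value alternatives this difference ran from -3.23 to -2.75 and from -3.33 to -2.68. Between day 139 and day 2 it was -0.07. With only Mmp8 and Mmp9 in the stage, the median is the midpoint of a gene that fell far and a gene that fell by less. Taken singly, Mmp8 differed from the primary median by -4.87 on day 2 and -4.74 on day 139, and Mmp9 by -1.57 and -1.84. The contrast of the stages thus rests mostly on Mmp8, whose stage is the one set by the list. Several other secondary granule genes, given below, were also called lower, so lower values were not limited to the genes taken here as tertiary.

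The other genes of each granule were read from lists written from general knowledge. Some genes stand in several lists by the same probe, so the counts of the lists do not stand apart. Cxcr2 and Csf3r are in the tertiary and secretory, mature neutrophil and granulopoiesis lists. Stfa1 and Stfa2 are in the mature neutrophil and inhibitor lists. In RNA from whole spleen, fewer cells of a type and less RNA per cell cannot be told apart. Of 12 genes of granulocyte progenitors, all detected, none was called in any comparison. Of all probes, 1.91% were called higher and 2.55% lower on day 2, and 2.52% and 2.21% on day 139. Between day 139 and day 2, 4.16% were called in either direction. No call among 12 genes is near these shares, which also stand beside the counts of the lists below. The median log2 ratio of the progenitor genes was -0.01 on day 2 and -0.03 on day 139. Cebpe, the factor required for secondary granules, read 310, 446 and 391 on days 0, 2 and 139. Gfi1, a repressor needed for neutrophil development, read 292, 284 and 436. Of the 12 progenitor genes, 6 had ratios above 1 and 6 below on each later day.

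Of the other primary granule genes 12 of 13 were detected, and 1 was called, on day 2. This was Srgn, the serglycin core to which granule proteases bind, at 18482 on day 0, 9292 on day 2 and 10776 on day 139. The list had a median of 0.32 on day 2 and -0.08 on day 139. Many of its members, such as the lysosomal enzymes Ctsd and Hexa, are made by macrophages too.

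The other secondary granule genes did not behave as Ltf, Camp and Ngp. Of 11 detected, 6 were called lower on day 2 and 4 on day 139, none was called higher, and the medians were -1.74 and -1.26. With the genes not well above background on 1 array held at their bounds, the medians were -1.47 and -1.03, and with normexp background correction they were -0.50 and -0.45. Lcn2, which encodes the siderophore-binding lipocalin, read 9597, 2346 and 1739, so it was 4.09-fold and 5.52-fold lower. Hp, haptoglobin, was 4.61-fold and 5.71-fold lower, and Chi3l3, a chitinase-like lectin, 3.34-fold and 7.48-fold lower. Lrg1, a leucine-rich glycoprotein stored in neutrophils, was 3.79-fold and 6.21-fold lower. Ceacam10 was at least 3.17-fold lower on day 2, where it was not well above background. In contrast, Cybb and Cyba, the subunits of the membrane part of the NADPH oxidase, were not called and had log2 ratios between 0.01 and 0.62. The genes of this list thus divided in direction. The part of other cells of the spleen in these values was not tested.

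Of the other genes of tertiary granules and secretory vesicles, all 12 were detected, 5 were called lower on day 2 and 3 on day 139, and the medians were -0.91 and -0.56. Cxcr2, the receptor for neutrophil chemokines, read 1443, 242 and 283. Adam8, a membrane protease, read 4583, 2089 and 1037. Slc11a1, a metal ion transporter of phagocytes, was 1.88-fold and 2.63-fold lower. Alpl, the alkaline phosphatase of secretory vesicles, and Fcgr4, an Fc receptor, were called on day 2 only, at 2.22-fold and 1.89-fold lower. The integrin chain Itgam read 3040, 3035 and 3109, the flattest of the list.

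**Figure D4:**
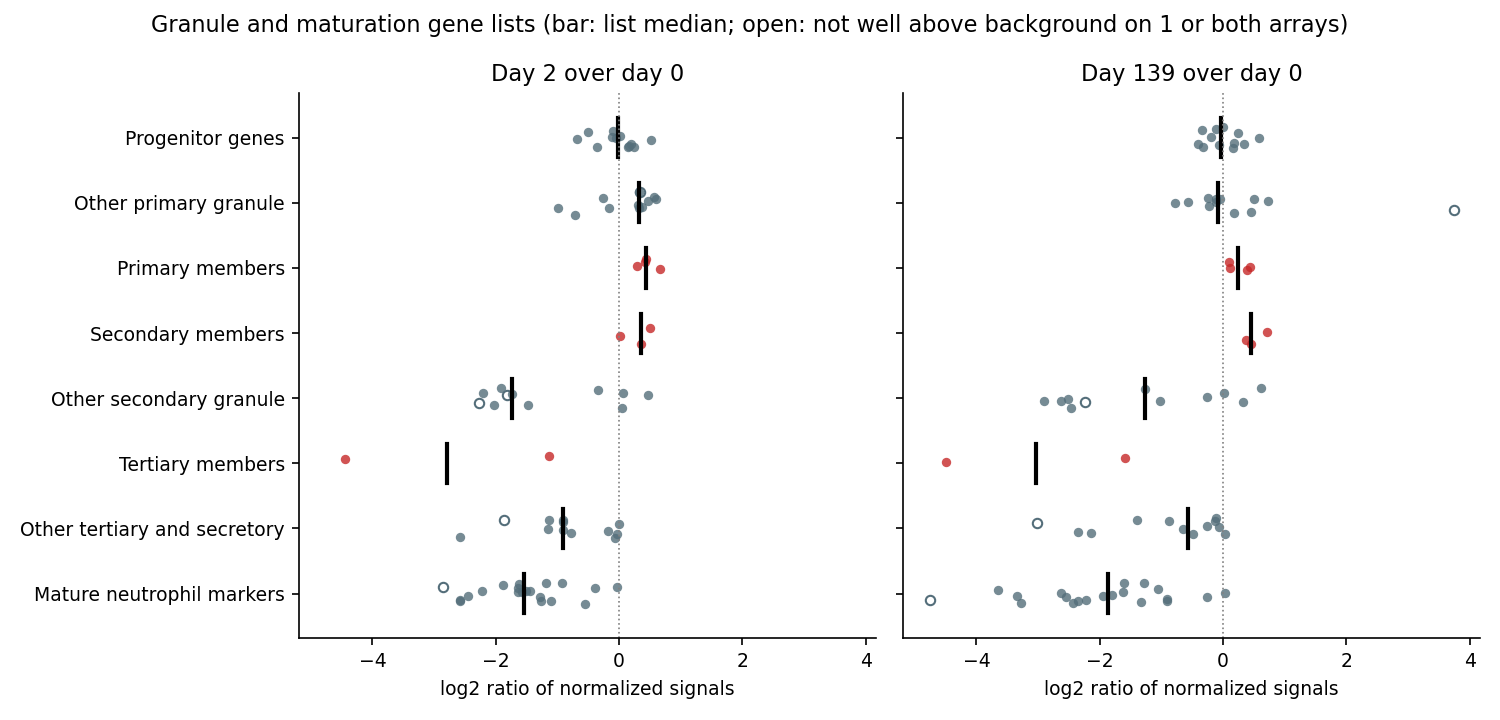
Log2 ratios of single genes in 8 gene groups ordered by stage, for day 2 over day 0 and day 139 over day 0. Red points are the 9 genes, grey points the genes of the other lists, open points genes not well above background on at least 1 of the 2 arrays, and black bars the medians. The progenitor genes have medians of -0.01 and -0.03, the primary members 0.43 and 0.25, the secondary members 0.35 and 0.45, and the mature neutrophil markers -1.54 and -1.87.

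Markers of mature neutrophils were lower with Mmp8 and Mmp9. Of 20 detected of 21, 17 were called lower on day 2 and 14 on day 139, and those 14 were among the 17, in comparisons that share the day 0 array. The summed signal of the list went from 275163 on day 0 to 111738 and 114296. Most of it came from S100a9, at 147009, 51357 and 58589, S100a8 and Csf3r. Between day 139 and day 2, 13 of the 20 genes had ratios below 1 and 7 above, so the sum does not show most genes. S100a8, a calcium-binding protein abundant in neutrophil cytosol, read 53944, 11605 and 15540, and Retnlg, a resistin-like protein of mature neutrophils, 13195, 2214 and 1055. Csf3r, the receptor for G-CSF, read 39796, 38837 and 33261, and Ly6g, the antigen bound by neutrophil antibodies, 517, 352 and 532. Neither Csf3r nor Ly6g was called, so the list was not uniform. What share of the lower Mmp8 and Mmp9 goes with the amount of mature neutrophils was not tested.

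Other cell types that make some of these proteins were read beside them. Of 12 detected monocyte markers, 2 were called lower on day 2 and 3 on day 139, with 1 called higher each time, and 10 of the 12 had ratios below 1 on day 2. The summed signal ran from 84309 to 91504 over the 3 arrays, most of it from Csf1r and Ly6c1, whose signals changed by at most 1.27-fold against day 0. Cd14, a receptor for bacterial lipopolysaccharide that neutrophils carry too, was 2.72-fold and 6.11-fold lower on day 2 and day 139, and F13a1, a coagulation factor subunit of monocytes, 2.94-fold and 5.69-fold lower. The matrix protein Fn1 was called lower on day 139, at 2.77-fold, and the chemokine receptor Cx3cr1 was called higher on both days, at 2.38-fold and 2.86-fold. Cd14 and F13a1 thus moved with Mmp8 and Mmp9, and Cx3cr1 against them. Of 13 macrophage markers, 1 was called lower on each day, and the sums ran from 121025 to 134469. The 10 eosinophil markers summed to 12870, 8623 and 10784, with 2 called lower on day 2 and 1 called higher on day 139. The 10 detected basophil and mast cell markers summed to 1235, 1279 and 943. Of these, Cpa3 was called higher on day 2, at 3.15-fold, and on day 139 the basophil proteases Mcpt8 and Prss34 were called higher, at 3.79-fold and 2.56-fold, while Cma1 was at least 3.89-fold lower. All 10 B cell markers, all 10 T cell markers and 13 of 14 erythroid markers were detected. The B cell markers had a median log2 ratio of 1.07 on day 139 over day 0 and the erythroid markers of -0.66. The part of these cells in the values of the granule genes was not tested.

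Of 13 detected genes of protease inhibitors, 4 were called lower on day 2 and 4 on day 139. The list is not limited to inhibitors of the granule proteases. Timp1, which binds Mmp8 and Mmp9, read 5972 on day 0, 3649 on day 2 and 567 on day 139. It was thus still 1.64-fold lower and not called on day 2, when Mmp8 was already at its later level. Serpina3n, a serine protease inhibitor, was 2.55-fold and 4.94-fold lower, and the stefins Stfa1 and Stfa2, cysteine protease inhibitors of mature neutrophils, were called lower on both days. Serpina1a, which encodes an alpha-1 antitrypsin that acts on elastase, went the other way, from 234 and 196 to 652, and was the 1 inhibitor called higher on day 139.

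Of a list of 15 genes linked to granulopoiesis and neutrophil traffic, 13 were detected, and 8 were called lower on day 2 and 8 on day 139. The list holds receptors and intracellular genes beside ligands. Both counts include the receptor Cxcr2, so they are not counts of driving signals alone. Il6 read 841, 50.9 and 40.4. The chemokine Cxcl1 was 3.89-fold lower on day 2 and at least 8.69-fold lower on day 139, and Cxcl2 was 6.59-fold lower and at least 14.1-fold lower. Cxcl5, another ligand of Cxcr2, was not called on day 2, at 1.70-fold lower, and was 10.6-fold lower on day 139. Csf3, which encodes G-CSF, was not well above background on any of the 3 arrays.

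Likeness was measured as the root mean square distance between log2 profiles centred over the 3 arrays, so it rests on 3 points that share their libraries. The genes most like the mean of the tertiary pair were Slfn4, Chi3l1 and Fam132b, at distances of 0.08, 0.09 and 0.10, and 161 of 19806 genes lay closer to that mean than Mmp8 and Mmp9 themselves. Read alone, a step added after the values were seen, Mmp8 was most like Il6, at a distance of 0.17, and then Il1r2, the decoy receptor for interleukin 1. The flat profiles of the early stages were shared widely. Six5, E230006M18Rik and LOC100504975 came nearest to the primary mean, and 3730 of 19804 genes lay within the distance of its farthest member. Nearest to the secondary mean were Pkd1l2, an unnamed lincRNA probe and Tbx6, with 1714 of 19805 genes within that distance.

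**Figure D5:**
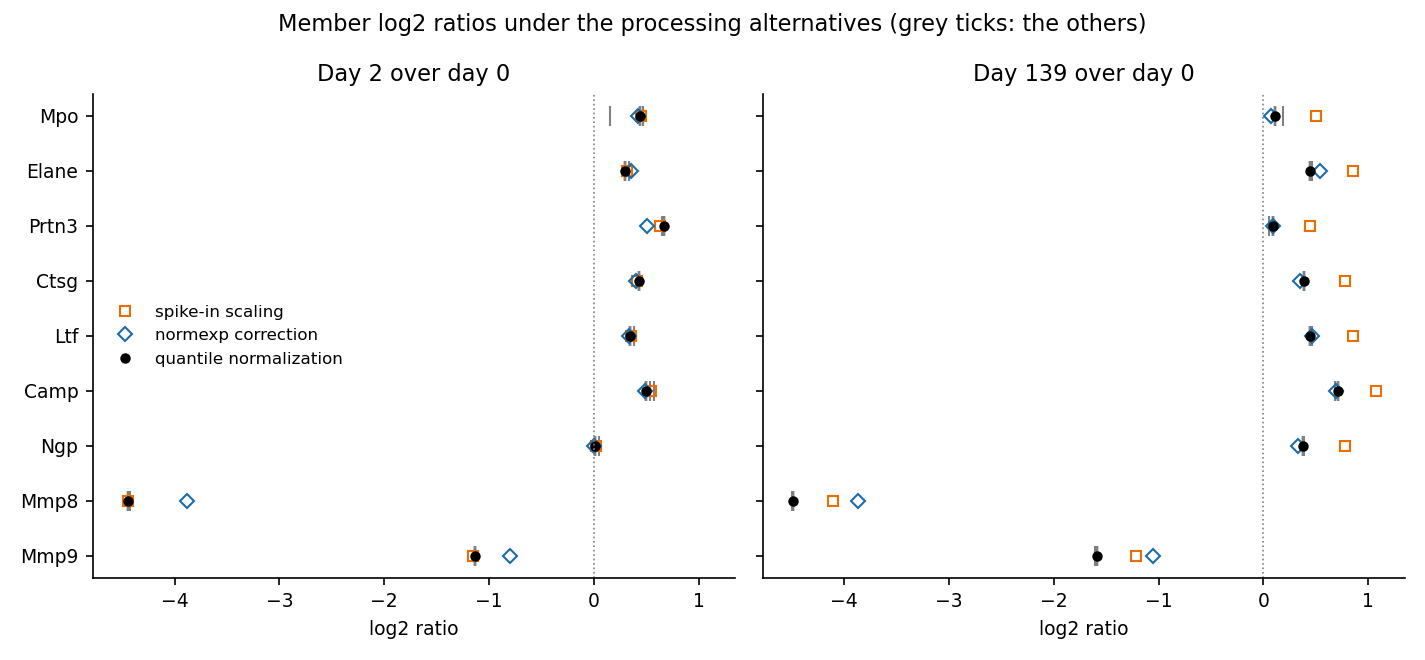
Log2 ratio of each gene against day 0 under quantile normalization (black), spike-in scaling (orange squares), normexp background correction (blue diamonds) and the other alternatives (grey ticks). Mmp8 stays between -4.50 and -3.87 in both comparisons, and spike-in scaling moves every gene up on day 139.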

How the data were processed

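Total RNA of spleen was hybridized in 1 colour to 3 Agilent SurePrint G3 arrays, 1 per time point. RNA and labelling kits differ between the labels and the paper. The authors deposited each scanner file, which holds spot intensity on a linear scale, background-subtracted by Feature Extraction (10.7.1.1 per the file headers, 9.5.1.1 per the submitters' processing notes), with other columns that flag outlier, saturated and well above background spots. They also deposited a table of processed intensity per probe, used as an alternative.

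Control and outlier spots were dropped, spots of a probe averaged, and probes quantile normalized over the 3 arrays, floored at 1 and taken to log2. Between 50.4% and 54.4% of probes were well above background, and none was saturated. The number of arrays limits the precision, and no p-value was computed. Each gene was read by its brightest detected probe. Where a spot was not well above background, the change is a bound, taken from that spot's signal or, if higher, the dimmest signal still well above background.

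The members, lists, motifs and tests were chosen with earlier results of these data known. All members were named, and of each other list up to 5 genes past the criteria, by size of the log2 ratio, with Csf3, Csf3r, Cebpe and Gfi1. Itgam, Cybb, Cyba, Ctsd, Hexa and the cell type markers named beyond these were picked after their values were seen. Probe positions are the array's (mm9), and promoters are RefSeq's (GRCm38.p6). Of the 34796 names, 19985 were RefSeq symbols, all 9 members among them.

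Alternatives were normexp with an offset of 50 (R 4.3.3, limma 3.58.1), the deposited table, scaling to the 8 spike-ins or to each array's 75th percentile, a raised floor (the dimmest signal well above background), no filter, a filter requiring detection on all 3 arrays, outlier spots kept, the median over a gene's probes, Z-scores from 250 probes, from the SD of all probes or from a median absolute deviation, and ratio limits of 2 or 0.5. The work was done in Python 3.11.15 (numpy 2.4.6, pandas 2.3.3). The code for the calls was checked on simulated arrays with changes larger than those of Mmp9, which gives no rate of false calls.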

Additional observations from a re-analysis of the deposited data

How the results depend on the processing

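Mmp8 was called lower against day 0 in 13 of 13 alternatives on day 2, at 14.7-fold to 21.7-fold lower, and in 13 of 13 on day 139, at 14.6-fold to 22.6-fold lower. Mmp9 was called in 10 of 13 on day 2 and 11 of 13 on day 139, and its ratio was below 1 in every alternative. The raised floor, the filters, the median over probes, the Z-score variants and the ratio limits left the ratios of Mmp8 and Mmp9 unchanged. Those alternatives bear on the calls and not on the direction. Without the Mmp9 call the count of genes called was 1 on day 2 with the deposited table, with a window of 250 probes and with 1 SD over all probes, and 1 on day 139 with spike-in scaling and with 1 SD over all probes. Normexp correction took the tertiary median to -2.34 on day 2 and -2.46 on day 139. Spike-in scaling, which moves the median of all probes on day 139 over day 0 from -0.02 to 0.35, gave -2.66 there for the tertiary genes, 0.64 for the primary and 0.85 for the secondary. Between day 139 and day 2 it gave 0.21 for the primary, 0.52 for the secondary and 0.14 for the tertiary genes, and turned the ratios of Mpo, Ctsg and Mmp8 above 1, as the median over probes did for Mpo and normexp correction for Mmp8. The cause was not tested. No stage median changed sign against day 0.

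Of single genes, Ngp on day 2 reached a ratio just under 1 in 1 alternative, and Camp was called higher on day 139 with the scaled median absolute deviation. That setting called 1349 probes up and 1564 down on day 2 and 1699 and 1738 on day 139, beside 613 and 819, and 808 and 709. Without a filter on dim probes 985 rose and 1276 fell on day 2. Up-calls on day 139 over day 0 were 53.3% of all calls, 79.4% with spike-in scaling and 67.0% with the raised floor. The medians of the other lists were put through the 8 value alternatives after the data were seen. On day 2 the mature neutrophil median stayed between -1.54 and -1.26 and the other secondary median between -1.74 and -0.50. On day 139 these ran from -1.88 to -1.46 and from -1.30 to -0.45, and the median of the other tertiary and secretory genes from -0.57 to -0.18. No paired analysis was possible because each group has 1 array. Dim spots, 1 array a day and the scanner error limit what small ratios can show.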
